A study of Homo sapiens with 2 samples.

Results

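The tissue kallikreins KLK5 to KLK14 are a run of 10 serine protease genes on 19q13, examined here in H322c cells, an established line of non-small cell lung cancer (NSCLC), with and without the EGFR inhibitor gefitinib. They were chosen by name, by a rule that uses no measured value, though earlier results of these data were known at the time. The array used has 16 probe sets annotated to a single gene of this list, out of 54675 probe sets in all, and these 16 stand for 9 of the 10 genes. KLK9 had no probe set of its own. A culture of H322c cells grew for 4 days in 0.1% DMSO, and a second for 4 days in 1 µM gefitinib, which inhibits the kinase of EGFR. Cells of both had been plated 24 hrs earlier in RPMI with serum. RNA of each culture was hybridized to 1 Affymetrix U133 Plus 2.0 array. Without replicates no difference could be tested, and every value describes this pair of arrays of a single cell line.

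Kallikreins are secreted as inactive proenzymes and are activated by removal of a short N-terminal peptide, often by another member of the family, so that they act as a cascade. In the epidermis KLK5, KLK7 and KLK14 cut the desmosomal proteins that hold cornified cells together, and the inhibitor LEKTI, the product of SPINK5, holds them in check. Outside skin they are found in glandular and stratified epithelia and in many carcinomas, and trypsin-like members can also activate protease-activated receptors at the cell surface. The genes lie side by side, and the comparison asks which of them had a different signal after EGFR inhibition and whether neighbours in the cluster did so in the same direction.

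Of the 9 kallikreins with a probe set of their own, 4 gave a usable signal, 3 of them on both arrays. These 3 did not all differ in the same direction. KLK5 was lower with gefitinib by more than 2-fold, KLK6 was lower by less, and KLK10 was slightly higher. KLK7 was above the floor on the gefitinib array alone, which by itself fixes its direction. KLK8, KLK11, KLK12, KLK13 and KLK14 stayed below the floor on both arrays. The floor is a signal intensity of 100, to which every lower signal was raised, and a gene was called measured where a probe set reached it on at least 1 array. The values are MAS5 signals, which have no physical unit, and signals of different probe sets are not compared with each other because each binds with its own efficiency.

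Since KLK5 and KLK6 are the kallikreins with lower signals and each has a single annotated start, the 250 bases before their starts are shown, from RefSeq on GRCh38.p14 and 5′ to 3′ along the gene, which lies on the minus strand in both cases. The KLK5 window is chr19:50953039-50953288 and the KLK6 window is chr19:50969592-50969841. Capitals mark matches on either strand to the TATA box core TATAA, the ETS core CCGGAA and the GC box GGGCGG.
KLK5: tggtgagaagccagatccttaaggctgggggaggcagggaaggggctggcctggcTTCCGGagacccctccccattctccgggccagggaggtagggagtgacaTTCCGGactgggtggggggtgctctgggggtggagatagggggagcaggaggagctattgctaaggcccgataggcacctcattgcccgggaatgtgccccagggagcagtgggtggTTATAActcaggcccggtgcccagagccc
KLK6: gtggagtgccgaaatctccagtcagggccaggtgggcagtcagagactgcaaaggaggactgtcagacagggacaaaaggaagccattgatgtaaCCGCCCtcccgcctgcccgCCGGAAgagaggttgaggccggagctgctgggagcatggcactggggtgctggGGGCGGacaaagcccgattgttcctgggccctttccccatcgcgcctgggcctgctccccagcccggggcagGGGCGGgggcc

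The KLK5 window held the TATA core on both strands, in overlapping matches that begin 29 and 28 bases before the start, and 2 ETS cores at 195 and 146 bases. The KLK6 window held no TATA core, an ETS core at 136 bases and GC boxes at 155, 83 and 11 bases before the start. Neither window held the AP-1 site TGANTCA or the steroid receptor half-site AGAACA. Among all 35116 promoter windows of this length in the table, 18.9% held the TATA core, 14.5% the ETS core, 42.6% the GC box, 6.57% the AP-1 site and 12.4% the steroid receptor half-site. Of the 16 windows that belong to 9 of the kallikreins, 5 held the TATA core, 6 the ETS core, 10 the GC box, and none the AP-1 site or the half-site. Several of these windows overlap, since KLK7, KLK10, KLK13 and KLK14 have starts close to each other. A match is a run of letters and not a measured binding site.

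KLK5, a trypsin-like enzyme that can activate KLK7 and KLK14, is represented by a single probe set, whose signal was 276.6 in DMSO and 109.1 in gefitinib. This is 2.54-fold lower with the drug, a log2 ratio of -1.34. Among the 10190 genes with neither signal under the floor, KLK5 stood at place 301 from the lowest ratio, so that 2.94% of these genes had a lower one. The gefitinib signal was only a little above the floor, and with the floor at 200 the log2 ratio of KLK5 becomes a bound of -0.47. The array has no other probe set of KLK5 with which to compare it.

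KLK6, also called neurosin, is a trypsin-like enzyme known from the nervous system and from several carcinomas. The signal of its only probe set was 3769.2 in DMSO and 2650.9 in gefitinib, far from the floor. The value with gefitinib was 1.42-fold lower, a log2 ratio of -0.51, and 18.0% of the genes above the floor on both arrays had a lower ratio. As a guide to the spread, the log2 ratios of different probe sets of the same gene had an SD of 0.54 over 4610 genes, so the difference of KLK6 is within 1 such SD and that of KLK5 is not. This SD describes how far probe sets of a gene disagree on the same pair of arrays. It says nothing about the spread between cultures. All signal levels above the floor are pooled in it, so it may not hold for KLK5, whose gefitinib signal was near the floor.

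KLK10, first described as a gene lost in breast carcinoma cells, was higher with gefitinib, at 726.0 against 544.5 with DMSO at its measured probe set. The ratio was 1.33-fold, or 0.42 on the log2 scale, and 67.4% of the genes above the floor on both arrays had a lower one. Its other probe set was under the floor on both arrays, with 13.1 and 5.0, and adds no value. The difference of KLK10 is also within 1 SD of the spread between probe sets.

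KLK7 is the chymotrypsin-like enzyme of the stratum corneum. Its measured probe set gave 53.5 in DMSO and 120.6 in gefitinib. Only the second reached the floor, so the gene is at least 1.21-fold higher, a bound of 0.27 on the log2 scale. Without the floor the ratio of the deposited signals would be 2.25, and with the floor at 50 the log2 ratio was 1.17, past 2-fold. At its other probe set the signals were 43.5 and 49.8, both under the floor. KLK7 was measured only because its gefitinib signal passed the floor, which by itself fixes the direction of its value.

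**Figure D1:**
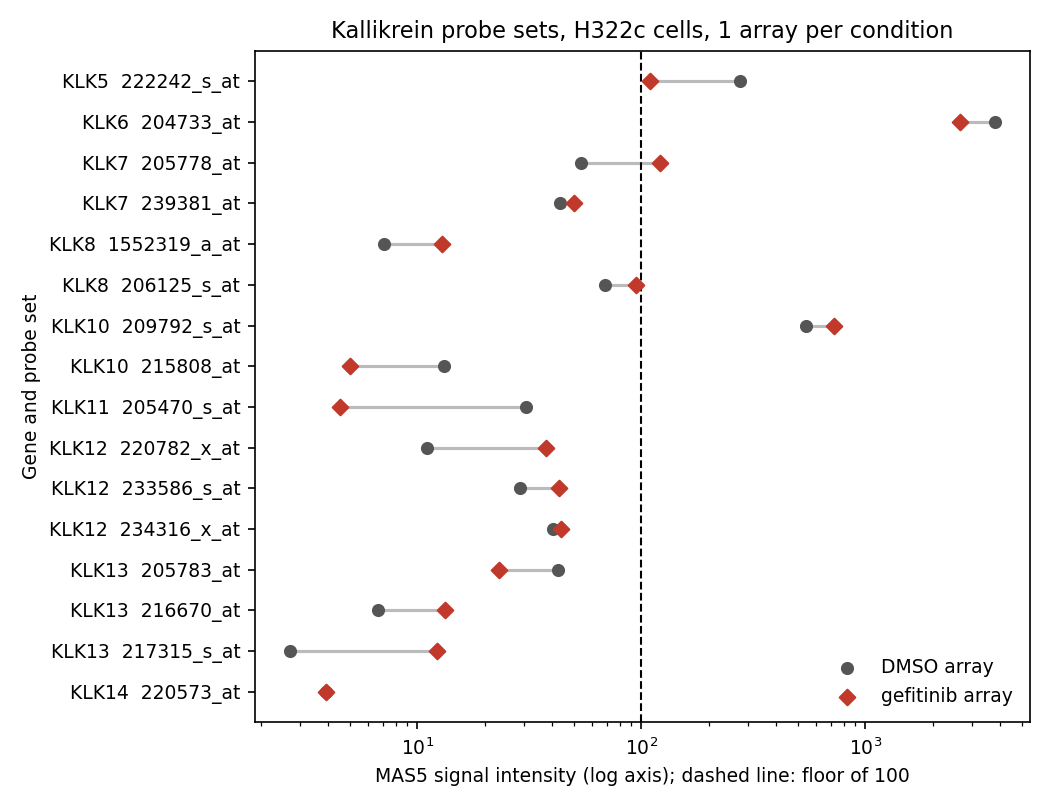
MAS5 signal intensity (horizontal log axis) of the 16 probe sets of 9 kallikreins (vertical axis) on the DMSO array (grey circles) and the gefitinib array (red diamonds), 1 array per condition, with the floor of 100 as a dashed line. The probe sets of KLK5, KLK6 and KLK10 that were measured have both points to the right of the floor, KLK7 has 1 probe set that crosses it, and the other 12 probe sets lie to its left; both KLK14 signals are 3.9 and overlap.

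The 12 probe sets below the floor on both arrays had signals from 2.7 to 94.1. The 1 closest to it was for KLK8, or neuropsin, with 68.9 on the DMSO array and 94.1 on the gefitinib array, and the other KLK8 probe set had 7.1 and 12.9. KLK11, or hippostasin, had 30.6 with DMSO and 4.5 with gefitinib. The 3 probe sets of KLK12 ran from 11.0 to 43.8 over both arrays, and the 3 of KLK13 from 2.7 to 42.5. KLK14, a trypsin-like enzyme of the epidermal cascade, was listed at 3.9 on both. The signal of a probe set annotated to KLK8 and KLK9 together was 35.0 with DMSO and 14.7 with gefitinib and cannot be given to either gene. Of the 12 probe sets, 8 were nominally higher with gefitinib, 3 lower and 1 equal, and since the median signal of all probe sets on these arrays was 42.3 and 41.7, no direction is read from them.

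At 2-fold, 1 of the 4 measured kallikreins was lower with gefitinib and none was higher. Among all 11223 measured genes, 6.20% were at least 2-fold lower and 13.3% at least 2-fold higher. With 4 genes measured, nothing is read from the 1 that was lower against these shares. The median log2 ratio of the 4 kallikreins was -0.12, against 0.12 for all measured genes, with values from -1.34 to 0.42 and 2 genes on each side of 0. Since KLK7 had to be higher to be measured, this median is given as a description only, and its sign turned under 3 alternatives, to 0.04 with scaling to control probe sets, 0.09 with scaling to GAPDH and 0.42 with a floor of 50.

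**Figure D2:**
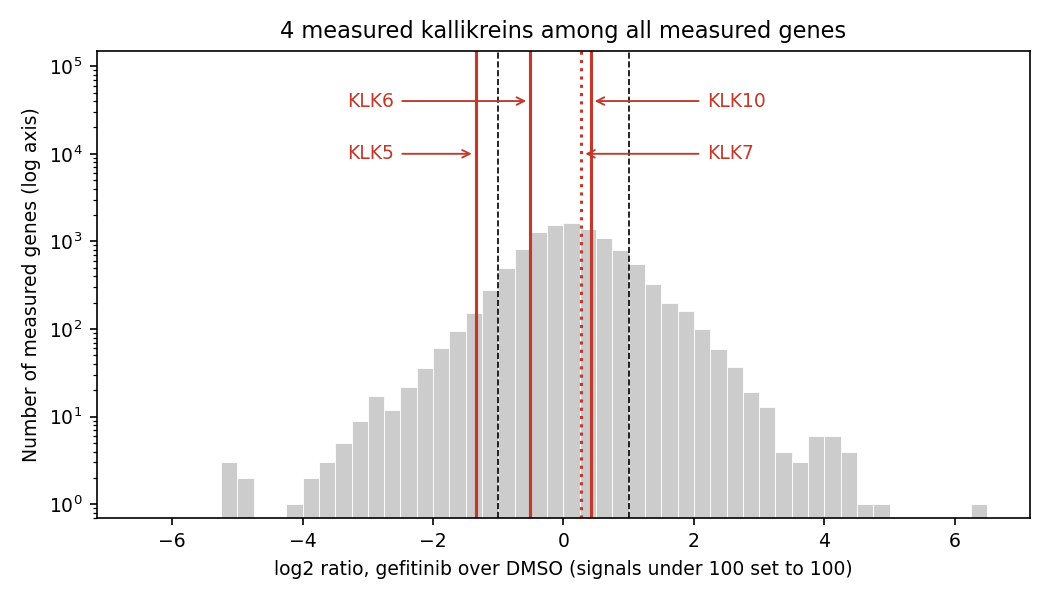
Number of measured genes (vertical log axis, 11223 in all) by their log2 ratio, gefitinib over DMSO, on the horizontal axis, with 1 array for each condition and signals under 100 set to 100. Red lines mark the measured kallikreins, dotted for the bound of KLK7, and dashed black lines mark 2-fold; KLK5 at -1.34 is the only kallikrein outside them.

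The measured kallikreins also differed among themselves. A difference between the log2 ratios of 2 genes does not depend on the factor by which an array was scaled, as long as no signal crosses the floor. The log2 ratio of KLK10 exceeded that of KLK5 by 1.76, a 3.38-fold difference in response. It exceeded that of KLK6 by 0.92, and KLK6 exceeded KLK5 by 0.83. The spread between probe sets would give such differences an SD of 0.77. The gap between KLK10 and KLK5 is more than 2 such SDs, and the other gaps are between 1 and 2 of them. The wider gap rests on a KLK5 signal of 109.1 in gefitinib, just above the floor. With a floor of 200, KLK5 has a bound of -0.47 against 0.42 for KLK10. With an offset of 50 in place of the floor they have -1.04 and 0.38, so the gap shown is smaller under both settings. No replicate exists against which to test any of these gaps.

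Along the chromosome, KLK5 and KLK6, both lower, are direct neighbours. KLK7 follows KLK6, with a direction fixed by the floor, and KLK10, the other kallikrein of this run with both signals above the floor, lies beyond KLK7, KLK8 and KLK9. On the other side of KLK5, beyond PPIAP59, which had no probe set, lies KLK4, an enzyme of tooth enamel formation, which had 194.4 with DMSO and 44.2 with gefitinib and was at least 1.94-fold lower. KLK4 was measured only because its DMSO signal passed the floor, which by itself fixes that direction. Its other probe sets were under the floor on both arrays. KLK3, the prostate-specific antigen, was measured at 1 probe set with 472.9 and 595.7, 1.26-fold higher, while its other probe sets had signals of at most 17.7. KLK1, KLK2 and KLK15 were not measured. Of the 30 protein-coding neighbours of the cluster, 15 on each side, 8 were measured. JOSD2 was at least 2.47-fold higher and was the only one of them past 2-fold, and their median log2 ratio was -0.23. POLD1 had a log2 ratio of -0.69, ACP4, which directly precedes the cluster, had -0.38, and CLDND2 had a bound of -0.41. JOSD2 and CLDND2 each reached the floor on a single array, which fixes their directions.

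**Figure D3:**
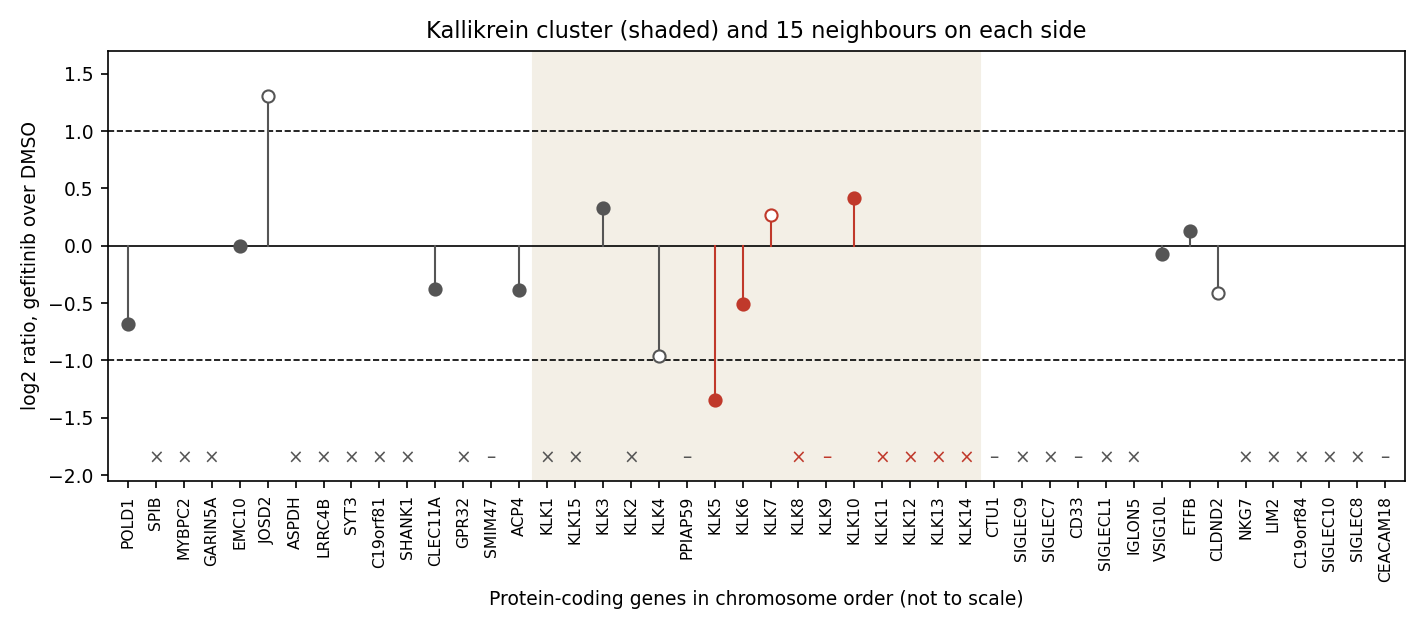
Vertical axis, log2 ratio (gefitinib over DMSO) of protein-coding genes in chromosome order (horizontal axis, not to scale), with the kallikrein cluster shaded and KLK5 to KLK14 in red, 1 array per condition. Filled points are genes with neither signal under the floor, open points are bounds, crosses mark genes with both signals under it and dashes genes with no probe set of their own, and among the filled red points KLK5 and KLK6 lie below 0 and KLK10 above it.

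Genes that act on or with the kallikreins were taken as lists. Their counts stand beside 13.3% of all measured genes at least 2-fold higher and 6.20% at least 2-fold lower. Of 15 inhibitors of kallikreins or related serine proteases, 4 were measured, with 1 at least 2-fold lower, none higher and a median log2 ratio of 0.26. SPINK5 itself was not measured. The 1 that was lower, SERPINE2 or protease nexin-1, is known mainly as an inhibitor of thrombin and urokinase, and gave 2656.5 in DMSO and 611.0 in gefitinib, 4.35-fold lower. The Kunitz inhibitors SPINT1 (log2 ratio 0.35, and -0.23 at another probe set) and SPINT2 (0.16) and the plasmin inhibitor SERPINF2 (0.44) were within 2-fold. Of 17 substrates and receptors, 6 were measured, with a median of 0.08. PLAUR, the urokinase receptor, which kallikreins can cleave, was 9.37-fold lower and was the only one past 2-fold. The desmosomal cadherin DSG2, the cadherin CDH1 and the thrombin receptor F2R had log2 ratios of 0.14, 0.14 and 0.61 at the probe sets taken for them, and of -0.50, -0.31 and -0.88 at another, so none has a settled direction. Of the substrates in cornified desmosomes, CDSN, DSG1 and DSC1 were not measured, and neither was F2RL1, a receptor activated by trypsin-like kallikreins.

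Of 21 other serine proteases of epithelia, 10 were measured, with 1 higher and 2 lower by at least 2-fold and a median log2 ratio of -0.32. PRSS23 had 0.61 at the probe set taken for it and 1.46 at another, so the count of higher genes depends on that choice. TMPRSS11E was 6.56-fold lower and urokinase, PLAU, 3.16-fold lower, whereas TMPRSS13 was 2.61-fold higher and PRSS22 had a log2 ratio of -0.87. Of 18 genes of the cornified envelope and stratified epithelia, 11 were measured, with 5 higher, 2 lower and a median of 0.49. The keratin KRT4 was at least 77.3-fold higher, KRT13 15.1-fold and the protease inhibitor CSTA 5.13-fold higher, while SPRR1A was 5.25-fold lower. SPRR3 had a log2 ratio of 0.03 at the probe set taken for it and -3.65 at another. Both keratins are those of stratified epithelia that do not cornify. Of 12 steroid and related nuclear receptors, which control several kallikrein promoters, 8 were measured, with a median of 0.22, and 1 passed 2-fold, the mineralocorticoid receptor NR3C2, 3.61-fold higher. RXRA, with a log2 ratio of -0.17 at the probe set taken for it, had 2.06 at its other measured one, so this count depends on the choice of probe set. ESR1 had a log2 ratio of 0.90, PPARG 0.55 and VDR -0.46 at the probe set taken for it and 0.34 at another, and the progesterone receptor PGR was not measured. As a readout of the drug, 7 of 8 ERK-dependent transcripts were at least 2-fold lower, with a median log2 ratio of -3.32. The 4 measured kallikreins lay between -1.34 and 0.42 on the same scale. The floor limits how low a ratio can fall. From DMSO signals of 276.6, 53.5 and 544.5, KLK5, KLK7 and KLK10 could not have reached that median, so nothing is read from this contrast. ETV5, PHLDA1, DUSP6 and SPRY4 had the lowest values of the 8 ERK-dependent transcripts at the probe sets taken for them. The values of ETV5, DUSP6 and FOSL1 are bounds, so the median rests in part on a bound. Another ETV5 probe set had a log2 ratio of -0.96, within 2-fold.

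The line was epithelial by its markers, with all 6 measured on both arrays, none past 2-fold and a median log2 ratio of -0.25. KRT18 had -0.77, KRT8 -0.72 and CLDN4 -0.58, whereas EPCAM had 0.17, CDH1 0.14 (-0.31 at another probe set) and KRT19 0.07. The summed signal was 136016 with DMSO and 111234 with gefitinib. That sum is weighted to the brightest probe sets, the lower KRT18 and KRT8 among them, and is no measure of epithelial content. Leukocyte markers were not measured, with PTPRC at no more than 24.0 and CD3E at no more than 45.2, while CD68 had no probe set of its own. Of 3 fibroblast markers 1 was measured, COL1A1, with 420.8 and 950.2 at the probe set taken for it. The 3 measured probe sets of COL1A1 had log2 ratios from 0.14 to 1.57. COL1A2 and DCN were at most 44.5. Of 3 endothelial markers 2 were measured, with a summed signal of 158.4 and 574.0, and they went opposite ways. VWF had 30.0 in DMSO and 496.0 in gefitinib, PECAM1 had 128.4 and 78.0, and CDH5 was at most 15.4. The part of these transcripts in the kallikrein values was not tested. The arrays shared a common scale, with a 2% trimmed mean of 500.1 each, and the floor replaced 61.6% of all signals on the DMSO array and 60.4% on the gefitinib array. In a culture, fewer cells with a transcript and less transcript per cell cannot be told apart.

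**Figure D4:**
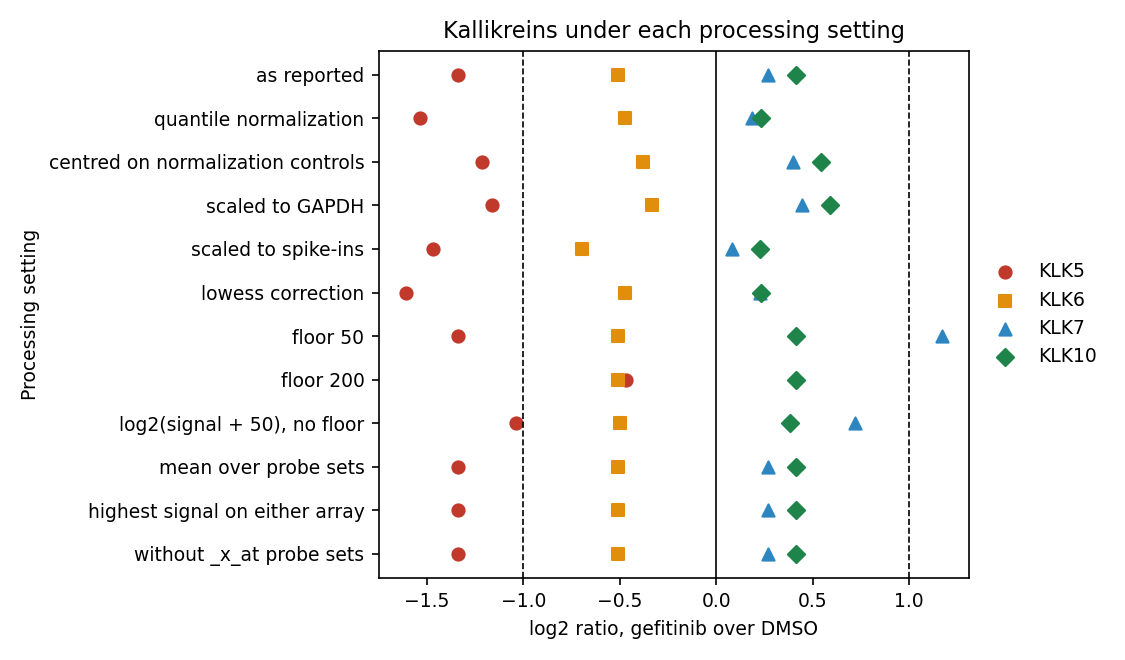
Log2 ratio of gefitinib over DMSO (horizontal axis) of the 4 measured kallikreins under each processing setting (vertical axis), 1 array per condition, with dashed lines at 2-fold. KLK5 lies left of -1 except with a floor of 200, where it is at -0.47, and its value is a bound both there and when scaled to the spike-ins (-1.47), KLK7 passes 2-fold only with a floor of 50 and is not measured with a floor of 200, and KLK6 and KLK10 stay within 2-fold throughout.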

How the data were processed

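Total RNA of H322c cells was hybridized to Affymetrix U133 Plus 2.0 arrays, 1 per condition. The values are signal intensities, not log-transformed, as deposited by the authors. The submitters' processing notes name MAS5, with the version not given in the sources used here. The MAS5 method subtracts background and mismatch signal, summarises each probe set and scales each array by 1 factor. A shift of most transcripts in the same direction would be removed by this scaling. The number of arrays limits precision.

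Probe sets were named through the platform annotation (41097 with 1 gene, 1801 with several, 11777 not listed), and symbols were updated by gene identifier to GRCh38.p14, where 41043 matched. Signals under 100 were set to 100 and log2 ratios (gefitinib over DMSO) computed. Each gene took the measured probe set whose mean log2 signal was highest, and differences were counted from 2-fold. No p-value was computed. Every kallikrein was named, with every probe set, and, per list, up to 4 measured genes whose log2 ratios were farthest from 0, beside unmeasured genes and cell type markers. The members and lists were chosen with earlier results of these data known, and the promoter motifs after the values were seen. Promoter windows came from RefSeq, which had them for 9 members, and KLK8 is named only. The procedure was tested on simulated data. Known changes were placed there only in genes with high signals, so signals as low as those of KLK5, KLK7 and KLK10 were not covered. Python 3.11.15, numpy 2.4.6, pandas 2.3.3, statsmodels 0.14.6 and matplotlib 3.10.9 were used.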

Additional observations from a re-analysis of the deposited data

How the results depend on the processing

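The alternatives were quantile normalization, scaling to normalization-control probe sets, to GAPDH or to spike-in transcripts, a lowess correction (span 0.3), floors of 50 and 200, an offset of 50 in place of the floor, averaging a gene's probe sets, taking the one with the single highest signal, dropping those of the _x_at type, and a threshold of 1.5-fold or 3-fold. The number of kallikreins at least 2-fold higher was 1 with a floor of 50, through KLK7 (log2 ratio 1.17), and 0 in the other 12 alternatives. The number lower was 0 with a floor of 200, where KLK5 is a bound of -0.47, and 0 at 3-fold, and 1 in the other 11. KLK5 and KLK6 had negative log2 ratios in 11 of 11 alternatives that give one, from -1.61 to -0.47 and from -0.70 to -0.33, and KLK5 was also a bound when scaled to the spike-ins (-1.47). In both settings where KLK5 is a bound, only its DMSO signal reached the floor, which fixes its direction there. KLK10 was positive in 11 of 11, from 0.23 to 0.59. KLK7 was positive in 10 of 10, from 0.08 to 1.17. Except with a floor of 50, only its gefitinib signal reached the floor, which fixes that direction. Averaging probe sets, taking the highest signal and dropping the _x_at type could not change any of these values. Each of these genes has 1 measured probe set, and none is of that type. The floors of 50 and 200 and the offset of 50 could change a value but not reverse its sign. A direction could therefore have turned only under quantile normalization, the scalings or the lowess correction. The median of the measured kallikreins ran from -0.47 to 0.42 and changed sign, with 0.04 when scaled to the control probe sets, 0.09 to GAPDH and 0.42 with a floor of 50, the settings in which KLK8 was also measured, with log2 ratios of 0.04, 0.09 and 0.45. Among all measured genes past 2-fold, 68.2% were higher as deposited, 80.4% when scaled to GAPDH, 57.6% with lowess and 50.5% when scaled to the spike-ins. The median log2 ratio of all measured genes was 0.12 as deposited, 0.24 with the control probe sets, 0.28 with GAPDH and -0.07 with the spike-ins. No paired analysis was possible because each condition has 1 array. Signals near the floor limit KLK5 and KLK7, and signals under the floor do not show that KLK8, KLK11, KLK12, KLK13 and KLK14 were absent.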
